A study of Bos taurus with 15 samples.

Results

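YBX1, YBX3, CARHSP1, LIN28B, CIRBP and RBM3 are 6 genes for RNA-binding proteins of the cold-shock families, and they were followed here in bovine blastocysts. They were taken from the deposited count tables by gene symbol and NCBI Gene ID, whatever their values. The filtered table of 10832 genes held 5 of the 6. LIN28B was found only in the table of 34773 genes that had not been filtered for low counts.

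Each library was made from a pool of 8 to 14 embryos of Bos taurus, produced by in vitro fertilisation and collected as blastocysts on day 7. Control embryos (Co, 5 libraries) were cultured without oviductal extracellular vesicles (oEVs), which are membrane-bound particles released by the lining of the oviduct. The other embryos were cultured with fresh oEVs (FeEV, 5 libraries) or with oEVs that had been frozen and thawed (FoEV, 5 libraries). The oEVs came from oviducts of cows after ovulation, collected at a slaughterhouse. According to the paper, fresh and frozen oEVs were parts of the same oviduct material. Which FeEV and FoEV pools shared vesicles was not given in the labels, and the main fits did not pair them. Freezing was applied to the vesicles, and no source used here describes a cold treatment of the embryos themselves. No genotype or sex of the embryos was given, and the pools chosen for sequencing were those with the best RNA. Nothing states that the pools of 1 treatment came from separate fertilisation rounds, so p-values measure the spread between these pools, which may be partly technical.

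The cold-shock domain is an old nucleic acid-binding fold that is also present in bacterial cold-shock proteins. YBX1 and YBX3 are Y-box proteins, which coat mRNAs in the cytoplasm and affect their translation and stability. CARHSP1 is a small cold-shock domain protein that binds and stabilises mRNA, and LIN28B blocks the maturation of let-7 microRNAs in immature and embryonic cells. CIRBP and RBM3 hold no cold-shock domain. They are small proteins with an RNA recognition motif (RRM) and a glycine-rich tail, and their expression is known to increase in mammalian cells under mild cooling.

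The libraries held 2136713 to 4058887 counts each. Every FoEV library (at least 3392613) was deeper than every Co library (at most 2977004), so depth cannot be told apart from these treatments. The rRNA share was 15.5 to 28.2%. Levels are given as CPM, the reads per 1000000 reads of the library total after TMM scaling, which adjusts for differences in composition. They are not divided by transcript length, so levels were compared between treatments for 1 gene and not between genes. Markers of the 3 cell lineages of the blastocyst were measured in all libraries, with summed levels of 6719 to 11710 CPM for 8 trophectoderm genes, 4645 to 8881 CPM for 6 hypoblast genes and 339 to 547 CPM for 6 inner cell mass genes. Markers of oviduct epithelium (5 genes) summed to 14.0 to 34.6 CPM and those of cumulus and granulosa cells (6 genes) to 6.31 to 18.1 CPM, while 5 blood genes summed to 0.894 to 8.10 CPM with HBB at 0 counts in every library. Most of the oviduct sum came from MUC16 and PAX8. As RNA came from whole pools, fewer cells of a type and less RNA per cell cannot be told apart.

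The question for each gene was whether its mRNA differed between embryos grown without oEVs, with fresh oEVs and with frozen oEVs. Every gene but YBX3 had its highest mean level in FoEV. The fitted FoEV level was 1.37-fold the Co level for CIRBP, 1.17-fold for LIN28B, 1.15-fold for YBX1 and 1.13-fold for CARHSP1. For YBX3 it was 0.96-fold. RBM3, the closest relative of CIRBP among these genes, was at 1.01-fold. YBX3, CARHSP1 and LIN28B had few reads, and the levels of YBX3 and CARHSP1 varied widely between the pools of Co and of FeEV. In each of the 3 comparisons, 0 of the 6 genes reached an adjusted p under 0.05 (edgeR's quasi-likelihood test, Benjamini-Hochberg adjustment over all genes tested), and the count was also 0 with edgeR's likelihood ratio test with robust dispersions. DESeq2 gave 0 as well, but no adjusted p for YBX3, CARHSP1 and LIN28B in FoEV against Co or for LIN28B in FoEV against FeEV.

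**Figure D1:**
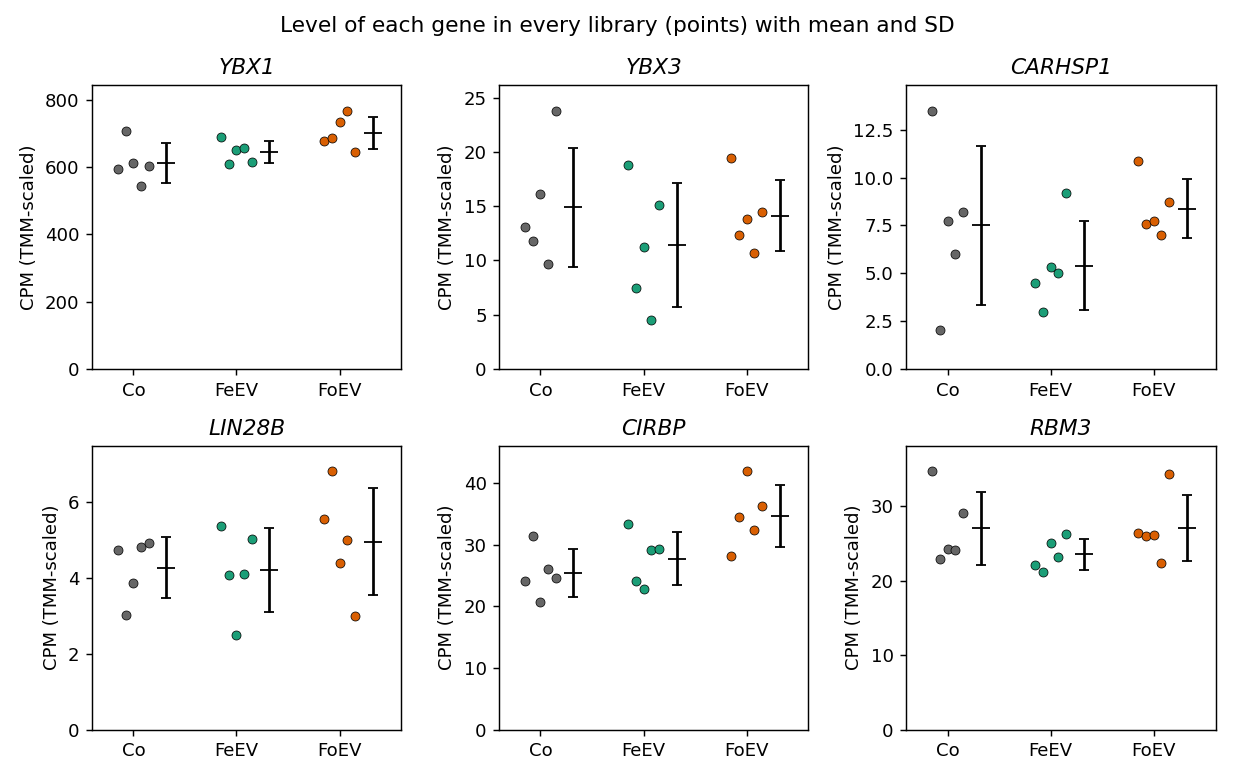
Level of each gene in CPM (y axis, linear from 0) in the 15 libraries, by treatment (x axis). Each point is 1 library, and the bars give mean and SD (n = 5). For CIRBP, 4 of the 5 FoEV points lie above every Co point, and for the other genes the treatments overlap more.

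YBX1 (gene 287023), the main Y-box protein of proliferating cells, was covered by 1354 to 2931 reads per library. Its level in the Co replicates 1 to 5 was 595, 707, 612, 543 and 604 CPM. In FeEV it was 691, 611, 652, 659 and 616 CPM, and in FoEV 679, 685, 734, 768 and 645 CPM. The Co, FeEV and FoEV means were thus 612 ± 59.3, 646 ± 33.0 and 702 ± 48.5 CPM (mean ± SD, n = 5 each). The treatments overlapped, since Co replicate 2 reached 707 CPM, and 2 of 5 FoEV libraries lay above every Co and every FeEV library.

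The fitted log2 fold change of YBX1 between FoEV and Co was 0.20 (SE 0.081, 95% interval 0.03 to 0.37), with an unadjusted p of 0.0235 and an adjusted p of 0.251 by edgeR's quasi-likelihood test. Without Co replicate 4, FoEV replicate 3 or FoEV replicate 4 the unadjusted p was 0.0751, 0.0589 and 0.0621. FeEV stood between the other treatments and differed from neither beyond the spread of the pools. Its log2 fold change was 0.08 against Co (95% interval -0.09 to 0.25), and FoEV against FeEV gave 0.12 (95% interval -0.05 to 0.29, adjusted p = 0.675 by edgeR's quasi-likelihood test). Processed copies of Y-box genes are known in mammalian genomes, and how reads from such copies were assigned was not examined.

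YBX3 (gene 533297), a Y-box protein that represses translation of its target mRNAs, had 10 to 84 reads per library. Its level was 13.1, 11.8, 16.1, 9.63 and 23.8 CPM in the Co replicates 1 to 5. It was 18.8, 7.43, 11.3, 4.55 and 15.1 CPM in FeEV, and 19.4, 12.4, 13.8, 10.7 and 14.4 CPM in FoEV. The 3 treatments covered much the same range, and the widest spread was within FeEV, where the highest library was 4.12 times the lowest. The Co, FeEV and FoEV means were 14.9 ± 5.50, 11.4 ± 5.71 and 14.1 ± 3.30 CPM (mean ± SD, n = 5 each).

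No difference in YBX3 was larger than the spread between pools. Its log2 fold change was -0.06 for FoEV against Co (95% interval -0.66 to 0.54). It was -0.34 for FeEV against Co (-0.96 to 0.29) and 0.28 for FoEV against FeEV (-0.33 to 0.88). The FeEV value against Co was -0.58 without FeEV replicate 1 and -0.12 without Co replicate 5, and that of FoEV against FeEV was 0.52 without FeEV replicate 1 and 0.10 without FeEV replicate 4. On the fold scale the interval for FoEV against Co ran from 0.631-fold to 1.46-fold. Over the 15 libraries, the YBX3 level went with library depth, with a Pearson r of 0.56 between log2 CPM and total counts and 0.77 after removal of the treatment means. The part of depth in the YBX3 values was not tested.

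CARHSP1 (gene 506760), the calcium-regulated heat-stable protein, had 6 to 47 reads per library. Its level was 13.5, 2.02, 7.74, 6.02 and 8.21 CPM in the Co replicates 1 to 5. It was 4.47, 2.97, 5.32, 5.01 and 9.22 CPM in FeEV. In FoEV, where the pools lay close together, it was 10.9, 7.57, 7.71, 7.01 and 8.72 CPM. Co held both the highest and the lowest of the 15 values. The Co, FeEV and FoEV means were 7.50 ± 4.14, 5.40 ± 2.32 and 8.38 ± 1.53 CPM (mean ± SD, n = 5 each).

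The coefficient of variation of CARHSP1 was 55.3% in Co, where counting error alone gives 26.5%, and 18.3% in FoEV, where counting error gives 18.4%. The largest fitted difference among the 6 genes was that of CARHSP1 between FoEV and FeEV, with a log2 fold change of 0.61 (SE 0.34, 95% interval -0.09 to 1.32) and an adjusted p of 0.609 by edgeR's quasi-likelihood test. Against Co the values were 0.17 for FoEV (95% interval -0.51 to 0.86) and -0.44 for FeEV (-1.17 to 0.29). The FoEV value turned on single control pools, being -0.08 without Co replicate 2 and 0.50 without Co replicate 1. The FeEV value was -0.74 without FeEV replicate 5 and -0.12 without Co replicate 1.

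LIN28B (gene 112448101) was at the limit of what these libraries could measure. Its counts were 13, 9, 12, 12 and 12 reads in the Co replicates 1 to 5. They were 18, 11, 8, 9 and 18 reads in FeEV, and 24, 27, 16, 15 and 11 reads in FoEV. On the CPM scale the Co, FeEV and FoEV means were 4.28 ± 0.811, 4.22 ± 1.11 and 4.96 ± 1.41 (mean ± SD, n = 5 each). The spread within Co (a coefficient of variation of 19.0%) was below that from counting alone (29.6%), and that within FoEV (28.4%) was close to it (24.4%).

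LIN28B was fitted on the unfiltered counts after the filter that the study's methods state, which kept 11612 genes. Of these 0.00861% (1 gene) passed an adjusted p of 0.05 in FoEV against Co and 0% in the other comparisons. The log2 fold change of LIN28B was 0.22 for FoEV against Co (95% interval -0.38 to 0.83), 0.00 for FeEV against Co (-0.64 to 0.63) and 0.23 for FoEV against FeEV (-0.37 to 0.82). On the fold scale the interval for FoEV against Co ran from 0.768-fold to 1.77-fold.

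CIRBP (gene 507120), the cold-inducible RNA-binding protein, had 60 to 152 reads per library. Its level in the Co replicates 1 to 5 was 24.1, 31.4, 20.6, 26.1 and 24.6 CPM. In FeEV it was 33.4, 24.1, 22.8, 29.1 and 29.3 CPM, and in FoEV 28.2, 34.6, 41.9, 32.4 and 36.3 CPM. In FoEV, 4 of 5 libraries were above every Co library and 3 were above every FeEV library, while FoEV replicate 1 lay within both ranges. The Co, FeEV and FoEV means were 25.4 ± 3.91, 27.8 ± 4.28 and 34.7 ± 5.02 CPM (mean ± SD, n = 5 each).

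Between FoEV and Co the log2 fold change of CIRBP was 0.45 (SE 0.14, 95% interval 0.15 to 0.75, 1.11-fold to 1.68-fold). Its unadjusted p was 0.00489, the rank 321 among 10832 genes, and its adjusted p by edgeR's quasi-likelihood test was 0.165. The unadjusted p stayed under 0.05 without any 1 of the 10 libraries in turn, with log2 fold changes from 0.37 (without FoEV replicate 3) to 0.54 (without Co replicate 2). FoEV against FeEV gave 0.32 (95% interval 0.02 to 0.61, unadjusted p = 0.0357, adjusted p = 0.563 by edgeR's quasi-likelihood test). That unadjusted p was 0.0861 without FeEV replicate 2, 0.104 without FeEV replicate 3, 0.123 without FoEV replicate 3 and 0.0635 without FoEV replicate 5. FeEV against Co gave 0.13 (95% interval -0.17 to 0.44).

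RBM3 (gene 509771), the other cold-inducible RRM protein, had 51 to 126 reads per library. Its level was 34.6, 22.9, 24.2, 24.1 and 29.1 CPM in the Co replicates 1 to 5. It was 22.1, 21.2, 25.0, 23.2 and 26.3 CPM in FeEV, and 26.4, 26.0, 26.2, 22.4 and 34.3 CPM in FoEV. Co replicate 1 and FoEV replicate 5 stood at nearly the same high level, and the FeEV libraries were the most alike. The Co, FeEV and FoEV means were 27.0 ± 4.89, 23.5 ± 2.09 and 27.1 ± 4.40 CPM (mean ± SD, n = 5 each).

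For RBM3 the coefficient of variation in FeEV was 8.89%, below the 12.1% that counting error alone gives. The log2 fold change of RBM3 was 0.01 between FoEV and Co (95% interval -0.29 to 0.30, or 0.818-fold to 1.24-fold). It was -0.19 for FeEV against Co (-0.50 to 0.11) and 0.20 for FoEV against FeEV (-0.10 to 0.50). The upper bound for RBM3 between FoEV and Co (1.24-fold) lay below the fitted CIRBP value (1.37-fold), but the intervals of both genes overlapped and the difference between the genes was not tested.

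**Figure D2:**
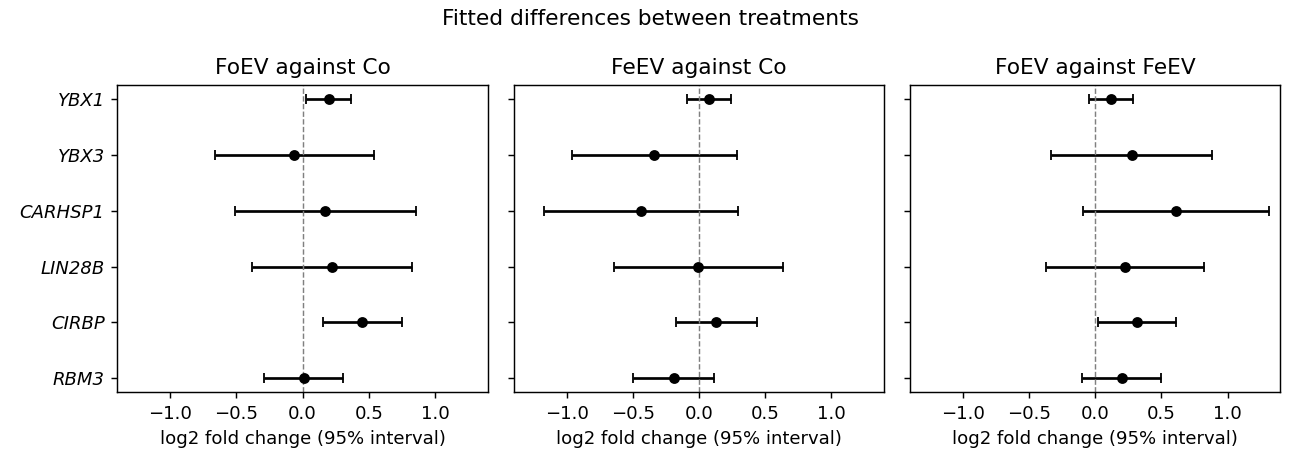
Fitted log2 fold change (x axis) of each gene (y axis) for FoEV against Co, FeEV against Co and FoEV against FeEV, with 95% intervals as bars. The intervals of CIRBP and YBX1 lie above 0 in FoEV against Co, that of CIRBP lies above 0 in FoEV against FeEV, and all others include 0.

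These counts were read against the background of all genes. In FoEV against Co, 2 of the 5 filtered genes (CIRBP and YBX1, both higher in FoEV) had an unadjusted p under 0.05, as did 15.1% of the 10832 genes tested, 8.18% higher and 6.88% lower. An adjusted p under 0.05 was reached by 0.00923% of these genes (1 gene). In FeEV against Co, 0 of the 5 genes had an unadjusted p under 0.05, against 4.15% of all genes (1.83% higher and 2.32% lower), and the adjusted threshold was passed by 0%. In FoEV against FeEV the count was 1 of 5 (CIRBP, higher in FoEV) against 8.52% of all genes (4.83% higher and 3.69% lower), again with 0% past the adjusted threshold. FoEV against Co and FeEV against Co share the Co libraries, so their values are not independent of each other.

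CIRBP and RBM3 are often studied as a pair, and their reads were set against each other within each library. There were 0.695, 1.37, 0.853, 1.08 and 0.845 CIRBP reads per RBM3 read in the Co replicates 1 to 5. In FeEV the ratio was 1.51, 1.14, 0.912, 1.25 and 1.12, and in FoEV it was 1.07, 1.33, 1.6, 1.45 and 1.06. The ratio was above 1 in 5 of 5 FoEV, 4 of 5 FeEV and 2 of 5 Co libraries, with means of 1.30 ± 0.237, 1.19 ± 0.220 and 0.969 ± 0.263 (SD, n = 5 each). The groups overlapped and no test was made of the ratio, which also depends on the lengths of both mRNAs.

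**Figure D3:**
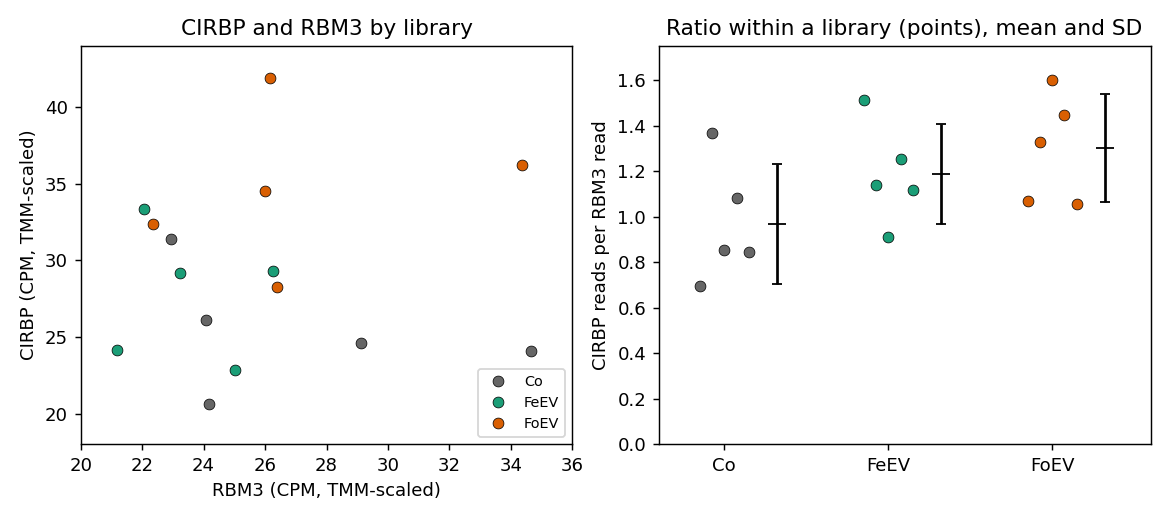
Left, CIRBP level (y axis, CPM) against RBM3 level (x axis, CPM) in the 15 libraries, with axes that do not start at 0. Right, CIRBP reads per RBM3 read in each library (points) with mean and SD (n = 5). The 2 levels did not go together over the libraries (Pearson r of 0.05 on log2 CPM), and the ratio was above 1 in all 5 FoEV libraries.

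The 6 genes did not share 1 pattern over the 15 libraries. Correlations are given as descriptions over libraries, which share depth and treatment. The highest Pearson r among the 15 pairs of genes was 0.72 (Spearman rho 0.89), between CARHSP1 and RBM3 on log2 CPM. It was 0.68 after removal of the treatment means and 0.74 without the 2 libraries farthest from the median CARHSP1 level. YBX1 and CIRBP had an r of 0.66 (rho 0.68), which was 0.38 within treatments and 0.76 without the 2 libraries farthest from the median YBX1 level. CIRBP and RBM3 had an r of 0.05 (rho -0.01), and both Y-box genes, YBX1 and YBX3, one of 0.02 (rho -0.02).

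**Figure D4:**
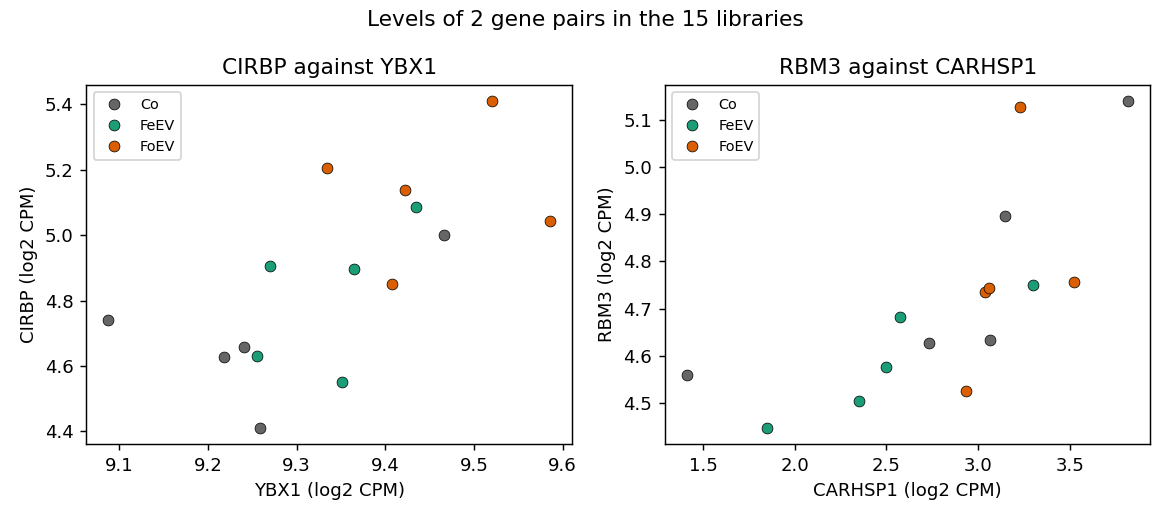
Log2 CPM of CIRBP against YBX1 (left) and of RBM3 against CARHSP1 (right) in the 15 libraries, coloured by treatment, with axes that do not start at 0. The FoEV libraries lie toward the upper right for YBX1 and CIRBP, while for CARHSP1 and RBM3 r was 0.68 after removal of the treatment means.

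Among about 6500 genes with a mean of at least 20 CPM, the 3 with the pattern most like CARHSP1 were MFGE8 (Pearson r of 0.93 over 15 libraries), NCLN (0.92) and PLD3 (0.91). For RBM3 they were GREB1L (0.87), TBC1D20 (0.86) and TMBIM6 (0.85), and for YBX3 they were TMEM88 (0.84), RABGEF1 (0.81) and TXNDC5 (0.80). YBX1 was most like RING1, FBXL18 and MIX23 (all 0.82). CIRBP was most like DCAF15, MRPL58 and LOC100847759 (all 0.77), and LIN28B was most like WASF2 (0.74), CNNM4 (0.72) and PSD3 (0.72). After removal of the treatment means the 3 CIRBP values were 0.56, 0.48 and 0.57. The LIN28B level varied little more than counting error, and the part of that error in its r values was not tested. Each set was picked by the highest r from about 6500 genes over 15 libraries. How high r gets by such picking alone was not tested.

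Trophectoderm markers had fitted values of the same sign as CIRBP and YBX1 in FoEV against Co, and 0 of 7 tested markers passed an adjusted p of 0.05. A log2 fold change above 0 was found for 7 of these 7 markers (median 0.21), against 52.3% of all genes, and 4 were higher with an unadjusted p under 0.05, against 8.18% of all genes. KRT18, a keratin of the outer embryonic epithelium, had the lowest p of these 4, with a log2 fold change of 0.55 (adjusted p = 0.0818 by edgeR's quasi-likelihood test). In FeEV against Co, 7 of the 7 trophectoderm markers were also above 0 (median 0.13), against 51% of all genes. In FoEV against FeEV it was 6 of 7 (median 0.10), against 51.8% of all genes. The summed level of 8 trophectoderm markers was 6719 to 9112 CPM in Co, 7402 to 10969 CPM in FeEV and 8671 to 11710 CPM in FoEV. Of 5 hypoblast markers, 4 were below 0 in FoEV against Co (median -0.29) and 4 in FeEV against Co (median -0.13). Their summed level was 6360 to 8881 CPM in Co, 5563 to 7910 CPM in FeEV and 4645 to 7353 CPM in FoEV. Of 6 inner cell mass markers, 3 were above and 3 below 0 in FoEV against Co (median 0.00). The lowest value, picked after the values were seen, was that of the pluripotency gene NANOG, with a log2 fold change of -0.84 (adjusted p = 0.178 by edgeR's quasi-likelihood test). POU5F1 and KLF4, with the highest mean CPM of these 6, were at 0.21 and 0.05. In FeEV against Co the value of NANOG was -0.62.

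Within treatments, the CIRBP level did not follow the trophectoderm sum (r of -0.23), and neither did that of YBX1 (-0.08), although over all 15 libraries r was 0.30 and 0.37. The CIRBP level went with the hypoblast sum within treatments (r of 0.58) and against the oviduct epithelium sum (r of -0.63). Each sum was carried by few genes, so each r largely describes those genes. By mean CPM over the 15 libraries they were FN1 (6196) for hypoblast and KRT8 (4720) and KRT18 (3277) for trophectoderm. For oviduct epithelium they were MUC16 (11.6) and PAX8 (8.39). CARHSP1, YBX3 and RBM3 varied with the trophectoderm sum inside treatments, with r of 0.66, 0.67 and 0.58. For the same genes r was -0.60, -0.65 and -0.53 with the hypoblast sum. It was -0.34, -0.65 and -0.46 with the inner cell mass sum, and 0.38, 0.77 and 0.32 with total counts. The part of lineage composition in the differences between treatments was not tested. Markers of oviduct epithelium summed to 16.2 to 34.6 CPM in Co, which received no oEVs, to 14.0 to 18.2 CPM in FeEV and to 14.9 to 33.6 CPM in FoEV. The other 3 genes of this sum, OVGP1, FOXJ1 and CAPS, had means of only 0.68, 0.30 and 0.73 CPM over the 15 libraries. Carry-over of oviduct RNA was not tested.

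The other genes with a cold-shock domain, or with the related fold of the DIS3 exonucleases, were taken as a list of 7, of which 6 were tested. In FoEV against Co, 3 were above 0 and 3 below (median 0.01), where 52.3% of all genes were above 0 and the median of all genes was also 0.01. LIN28A, the paralogue of LIN28B, had Co, FeEV and FoEV levels of 15.6 ± 2.70, 17.5 ± 1.78 and 16.0 ± 4.11 CPM (mean ± SD, n = 5 each). YBX2, the germ cell Y-box protein, was at 5.73 ± 2.99, 6.74 ± 3.09 and 6.50 ± 1.91 CPM. These genes had log2 fold changes of 0.03 and 0.18 between FoEV and Co, neither of them larger than the spread between pools. CSDC2 was not in the filtered table and had 6 reads over the Co libraries, 5 over FeEV and 11 over FoEV.

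DIS3L2, the exonuclease that degrades the uridylated let-7 precursors formed through LIN28, had its lowest values in FoEV. Its level was 17.5 to 24.6 CPM in Co, 14.4 to 18.6 CPM in FeEV and 11.6 to 14.9 CPM in FoEV, so that every FoEV library lay below every Co library, as was found for 1.35% of all genes. The log2 fold change of DIS3L2 was -0.53 for FoEV against Co (SE 0.15, unadjusted p = 0.00181, adjusted p = 0.134 by edgeR's quasi-likelihood test) and -0.35 for FoEV against FeEV (adjusted p = 0.553). DIS3, the catalytic subunit of the nuclear exosome, and DIS3L, its cytoplasmic counterpart, had log2 fold changes of -0.01 and 0.12 between FoEV and Co. All 3 belong to 1 enzyme family, and DIS3L2 alone had an unadjusted p under 0.05 in any comparison.

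The LIN28 and let-7 list gathered let-7 processing factors and well-known let-7 targets, and 17 of its genes were tested. In FoEV against Co, 12 were above 0 and 5 below (median 0.06), where 52.3% of all genes were above 0, and 0 passed an adjusted p of 0.05. The unadjusted p was under 0.05 for ARID3A (0.27) and ARID3B (0.35), log2 fold changes of 2 chromatin factors named after their values were seen. These were 2 of 17 genes, where 8.18% of all genes were higher at this threshold. Of the 3 most abundant genes, IGF2BP1, an mRNA-binding protein of embryonic cells, had a log2 fold change of 0.15, and KHSRP, a let-7 processing factor, one of 0.07. HMGA1, a chromatin protein, was at 217 ± 61.3 CPM in Co and 287 ± 86.2 CPM in FoEV (SD, n = 5 each), with a log2 fold change of 0.40 (adjusted p = 0.342 by edgeR's quasi-likelihood test). In FeEV against Co, 11 were above 0 and 6 below, and in FoEV against FeEV 8 and 9, where 51% and 51.8% of all genes were above 0.

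The list of proteins found with Y-box proteins in mRNA particles and stress granules had 29 tested genes. In FoEV against Co, 9 were above 0 and 20 below, with a median of -0.09, and 0 passed an adjusted p of 0.05. Over all genes, 52.3% were above 0. PABPC1, the main poly(A)-binding protein, was at 2068 ± 89.7 CPM in Co and 2058 ± 56.2 CPM in FoEV (SD, n = 5 each). CAPRIN1, a stress granule protein, had a log2 fold change of -0.24 and HNRNPU, a nuclear RNA-binding protein, one of -0.14. An unadjusted p under 0.05 was found for 5 genes, all lower in FoEV, against 6.88% of all genes. They were CAPRIN1 and, named after their values were seen, its partners G3BP1 (-0.23) and G3BP2 (-0.26), the cap-binding protein EIF4E (-0.27) and the helicase DHX9 (-0.19). In FeEV against Co, 12 genes were above 0 and 17 below, and in FoEV against FeEV 10 and 19, where 51% and 51.8% of all genes were above 0. G3BP2 was also lower in FeEV against Co (-0.20, unadjusted p = 0.0352 by edgeR's quasi-likelihood test). The 5 genes lower in FoEV against Co were picked by p after their values were seen. Their sign against that of YBX1 (0.20) is thus no separate result. The 9 genes above 0 had the sign of YBX1.

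**Figure D5:**
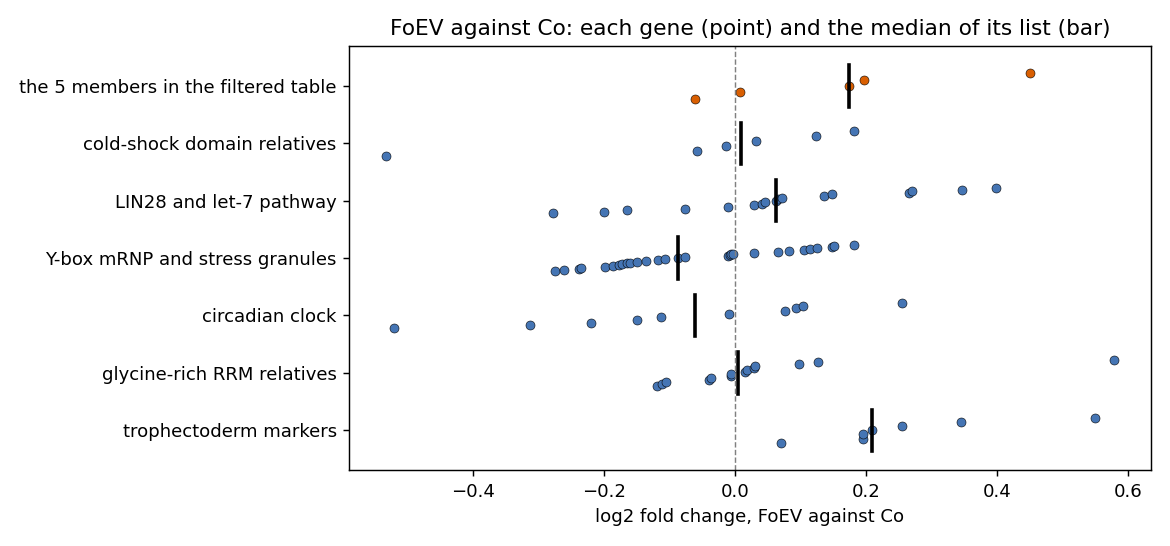
Fitted log2 fold change (x axis) of each gene (points) of the 5 filtered genes of the cold-shock families, of the 5 lists and of the trophectoderm markers (y axis) in FoEV against Co, with the median of each list as a bar. The list medians lie from -0.09 to 0.06 and that of the trophectoderm markers at 0.21.

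CIRBP is known to bind the mRNA of CLOCK and to affect the amplitude of the circadian clock, so 10 tested clock genes were listed. In FoEV against Co, 4 were above 0 and 6 below (median -0.06), where 52.3% of all genes were above 0, and 0 passed an adjusted p of 0.05. CLOCK had Co, FeEV and FoEV levels of 35.7 ± 10.2, 39.4 ± 9.76 and 32.2 ± 11.6 CPM (mean ± SD, n = 5 each), without a difference beyond this spread. NR1D2, a nuclear receptor that represses clock genes, was at 36.5 to 55.0 CPM in Co, 25.1 to 39.6 CPM in FeEV and 21.8 to 34.4 CPM in FoEV, and every FoEV library lay below every Co library, as for 1.35% of all genes. Its log2 fold change between FoEV and Co was -0.52 (unadjusted p = 0.00241, adjusted p = 0.14 by edgeR's quasi-likelihood test). It was -0.32 between FeEV and Co (unadjusted p = 0.0477 by the same test) and -0.20 between FoEV and FeEV. CSNK1D, a kinase of the PER proteins, had a log2 fold change of 0.25 between FoEV and Co (unadjusted p = 0.0172, adjusted p = 0.23 by the same test) and of 0.20 between FeEV and Co.

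The glycine-rich RRM relatives of CIRBP and RBM3 were 14 tested genes of the heterogeneous nuclear ribonucleoproteins and splicing factors. In FoEV against Co, 7 were above 0 and 7 below (median 0.00), and 0 had even an unadjusted p under 0.05. HNRNPA1, HNRNPA3 and HNRNPA2B1, the 3 most abundant, had log2 fold changes of -0.01, -0.12 and -0.01. In FeEV against Co, 13 were above 0 and 1 below (median 0.07), and in FoEV against FeEV 2 and 12 (median -0.07), again with no unadjusted p under 0.05 in either comparison. Over all genes, 51% and 51.8% were above 0. Both comparisons use the FeEV libraries, with opposite sign, so these counts are not independent of each other. The fitted values in FoEV against Co ran from -0.12 to 0.58. The 2 highest, named after their values were seen, were RBMX2 (0.58, SE 0.33, at 5.85 CPM in Co) and HNRNPAB (0.13). That of CIRBP (0.45) lay between these 2, above all of the relatives but RBMX2.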

How the data were processed

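Total RNA of 15 embryo pools was sequenced from 1 ng each as single reads, 5 pools per treatment. Tables of raw counts per gene were deposited by the authors, before and after a filter on low counts, with no normalization. The paper names QuasR for counting, and the submitters' processing notes name Trim Galore 0.4.3.1, HISAT2 2.1.0 and featureCounts 1.6.3, with build ARS-UCD1.2. The library kit selects strand, and the strand setting of the counting was not given in the sources used here. The labels give 7 days of culture, the paper a day more.

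Samples were grouped by title. Counts were TMM-scaled and fitted in edgeR 4.0.16 (R 4.3.3; robust glmQLFit, glmQLFTest) with treatment as the only factor over all 15 libraries, and tested on simulated data first. LIN28B was fitted on the unfiltered counts after the methods' CPM filter in at least 3 libraries, a choice made after seeing that the filtered table lacks it. CPM used TMM-scaled totals, and log2 CPM a prior count of 2. Replicates of a treatment differed by more than sampling noise in all 30 pairs (chi-square per degree of freedom 3.74 to 30.2). Libraries that share a number in the sample descriptions occur in all 3 comparisons. They deviated together in every pair of FeEV with Co (3 pairs, correlation of deviations 0.105 to 0.237) but not in every pair of the others. Alternatives were DESeq2 1.42.0 (Wald test and size factors), robust dispersions with a likelihood ratio test, the unfiltered table, 2 replicate blocks, fits of only 2 treatments, thinned counts, a prior count of 0.5 and each library left out.

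The genes and lists were chosen with earlier results of these data known. The genes named were the 6, the 3 most like each, every cold-shock domain relative (1 of which is not reported here), and from each other list every gene with an adjusted p under 0.05 and the 3 with the highest mean CPM. Figures were drawn with matplotlib 3.10.9.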

Additional observations from a re-analysis of the deposited data

How the results depend on the processing

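Of 339 alternative log2 fold changes of the 6 genes in the 3 comparisons, 321 kept their direction and 0 of those with an adjusted p passed 0.05. The other 18 changed sign, in 4 results whose fitted values were near 0 or rested on few reads, and the cause was not tested. RBM3 in FoEV against Co was -0.00071 with DESeq2 size factors and -0.092 to 0.11 with each library left out. YBX3 was 0.016 with robust dispersions and -0.21 to 0.16, and CARHSP1 -0.077 to 0.50, with each library left out. LIN28B in FeEV against Co was 0.0024 with robust dispersions, 0.11 with the replicate block by library number, 0.095 with thinned counts and -0.11 to 0.14 with each library left out. CIRBP in FoEV against Co was 0.44 to 0.56 under the 9 settings other than left-out libraries, with adjusted p from 0.0665 to 0.246 (edgeR or DESeq2). CARHSP1 in FoEV against FeEV was 0.47 to 0.92 with each library left out.

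The number of the 5 filtered genes with an unadjusted p under 0.05 in FoEV against FeEV was 2 with robust dispersions, the unfiltered table, the replicate block by title number and the fit of only 2 treatments, and 0 with thinned counts. With each library left out it was 0 to 2 in that comparison, 1 to 2 in FoEV against Co and 0 to 1 in FeEV against Co. It was 0 without FeEV replicate 2 or 3 or FoEV replicate 3 or 5 and 2 without FeEV replicate 5, while in FeEV against Co it was 1 (CARHSP1) without Co replicate 2.

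Over all genes in FoEV against Co, the 1 call became 144 with DESeq2, 311 with robust dispersions, 173 with the unfiltered table, 57 and 12 with the replicate blocks by title and library number, 5 with only 2 treatments, 8 with thinned counts and 0 to 58 with each library left out. In FeEV against Co, the 0 calls became 1 (DESeq2), 6 (robust dispersions) and 13 (unfiltered table), and in FoEV against FeEV 3, 31 and 22. Same-numbered libraries did not deviate together in every pair (mean r of 0.07, 0.19 and 0.21 in the 3 comparisons, with single pairs down to -0.37), so the title numbers were not taken to pair the samples. The library numbers met that check in FeEV against Co alone, where the replicate block by library number changed no call. The mean log2 CPM of 18 of 18 gene and treatment combinations stayed within 1 SD with a prior count of 0.5. Ordering the genes by level per length and setting aside near-identical copies were not run. LIN28B, CARHSP1 and YBX3 had the fewest reads of the 6 genes.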
